A study of Caenorhabditis elegans with 2 samples.

Results

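The genes examined bear the names of the factors of cytosolic translation initiation and elongation in Caenorhabditis elegans. They were chosen by symbol alone: every protein-coding gene of the Ensembl WBcel235 annotation whose name starts with eif-, eef-, ife-, iff- or ifg-. The rule gave 39 of the 19973 protein-coding genes on the 6 nuclear chromosomes. No measured value entered that rule, but the genes and the rule were chosen with earlier results of these data known. The data are ChIP-seq peak lists for ALY-1, the worm homologue of the mRNA export adaptor Aly/REF, in 2 biological replicates that form 1 group. Both came from strain OP502, genotype unc-119(tm4063) III; wgIs502, in which ALY-1 carries a GFP-FLAG tag at its C terminus, and sonicated chromatin was precipitated with an anti-GFP antibody. Whole early embryos of hermaphrodites, taken 0 hours after egg bleaching, were the material, so all embryonic cells are mixed. A single control alignment served both replicates. Neither the promoter of the transgene nor the state of the untagged aly-1 copies is given in the sources used here, and no precipitation from untagged embryos was analysed here.

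Translation starts when eIF2 brings the initiator tRNA to the small ribosomal subunit, eIF3 holds that complex together, and the cap-binding eIF4 factors load it on the mRNA. During elongation eEF1A delivers aminoacyl-tRNAs, the eEF1B subunits recharge eEF1A with GTP, and eEF2 moves the ribosome along by a codon. Several of these factors, eEF1A foremost, have abundant mRNAs in growing cells. Aly/REF proteins join mRNA during its transcription and processing and hand it to the export receptor.

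The pooled list, called on both replicates together, and the lists of the single replicates hold 30000 candidate peaks each, background included. The authors' final list holds the 881 peaks that passed their reproducibility threshold, and these were also the 881 strongest of the pooled list. A peak was assigned to a gene when its summit lay between 1000 bp upstream of the annotated 5′ end and 500 bp past the 3′ end. Peaks are given by rank in their own list, where rank 1 has the highest signal, because the signal is the authors' own value on a scale relative to the control that is not stated. Peak lists do not give read depth, which is unknown, and no error could be set on any 1 peak. Replicate ranks in brackets after a gene are its best ranks anywhere in the gene window, which can belong to another peak than the pooled one. All lists are on ce11. With 1 group no difference between conditions could be tested, and counts of translation factor genes are set beside the same counts over all protein-coding genes. The tagged gene itself, aly-1, had its best peak at rank 427 of the pooled list and at ranks 459 and 1737 of replicates 1 and 2. For unc-119, named in the genotype, these ranks were 4061, 16289 and 2241. The part of transgene copies in the signal at aly-1 was not tested. Peak lists hold no expression values, so the embryo label was not checked against marker genes.

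Translation factor genes had ALY-1 peaks or candidate peaks at a higher share than protein-coding genes at large, at each of the 3 strengths examined. A peak of the final list lay at 5 of the 39 genes, or 12.8% (95% exact Clopper-Pearson interval 4.30 to 27.4%), against 4.03% of all protein-coding genes. The 5 were iff-2, which encodes eIF5A; eef-1A.2, which encodes eEF1A; eef-2, which encodes eEF2; eif-3.C, a subunit of eIF3; and eif-2Bgamma, a subunit of the exchange factor eIF2B. Among the 5000 strongest pooled candidates, 15 of the 39 genes (38.5%, 23.4 to 55.4%) had a summit, against 18.4% of all genes. Any candidate at all was found at 37 genes (94.9%, 82.7 to 99.4%), against 60.1%. These intervals cover counting error only. Candidates include background, and the −log10 q of the peaks of these genes went down to 0.0563. Counted on replicate 1 alone, with as many of its strongest peaks as the final list holds, 7 translation factor genes (17.9%) had a summit, against 4.06% of all genes. On replicate 2 alone the count was 5 (12.8%), against 3.96%. The genes iff-2, eef-1A.2, eef-2 and eif-3.C were in all 3 of these sets, eif-2Bgamma was absent from that of replicate 2, eif-4A3 and ife-3 were only in that of replicate 1, and eif-3.E was only in that of replicate 2.

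The count of 5 depends on how peaks are tied to genes. When each summit counted only for the gene with the nearest body, 3 of the 39 genes remained (iff-2, eef-1A.2 and eef-2), against 3.24% of all genes. With summits inside gene bodies alone 0 were left, against 1.77%. No interval was computed for these counts, so an excess of the 3 genes over 3.24% was not tested.

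The median best rank of the 37 genes with a candidate was 6327 (quartiles 1466 and 8896), against 9460 (3918 and 17873) for the 12003 protein-coding genes with a candidate. Gene length was similar, with a median of 2152 bp for translation factor genes and 2027 bp for all genes. Per 100 kb of gene window, translation factor genes held 74.0 candidate summits, against 32.9 for all genes. The ratio was larger among the 5000 strongest (17.7 against 5.49) and in the final list (3.27 against 0.960). No test was made of these differences, because the genes were proposed with results of these lists known.

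**Figure D1:**
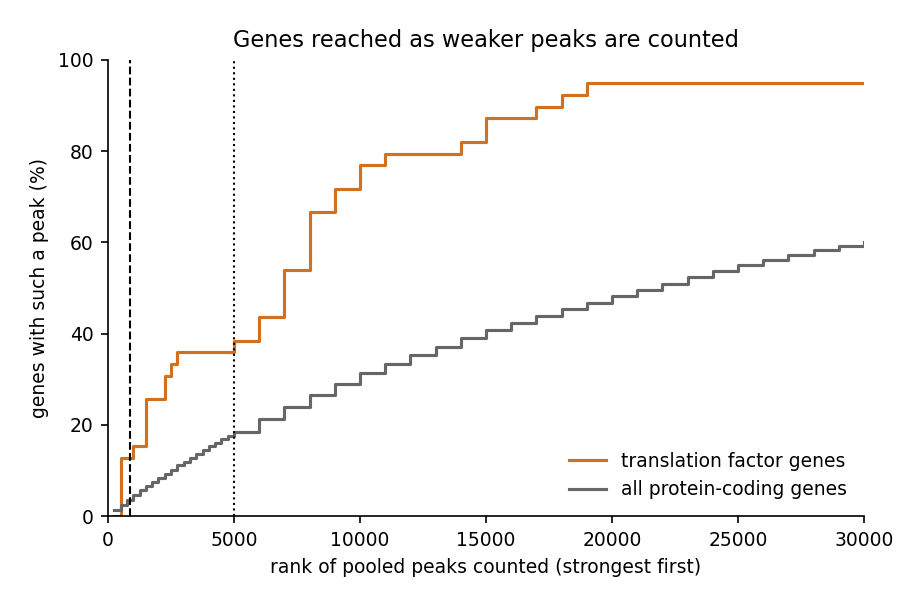
Share of genes (vertical axis, percent) with a summit among the strongest pooled peaks, as the number of peaks counted grows (horizontal axis), for the 39 translation factor genes (orange) and all 19973 protein-coding genes (grey). The dashed line marks the 881 peaks of the final list, where the shares were 12.8% and 4.03%, and the dotted line marks the 5000 strongest, where they were 38.5% and 18.4%.

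The strongest peak of the family lay at iff-2 (WBGene00002065, chromosome II, 8559375 to 8561367, minus strand), 1 of the 2 worm genes for eIF5A, the hypusine-bearing factor that helps ribosomes through difficult peptide bonds. Its summit stood 49 bp upstream of the annotated 5′ end, at rank 260 of the pooled list, with a signal of 122 and a −log10 q of 2.73, and at ranks 302 and 370 of replicates 1 and 2. The 2 replicates placed this peak close together in rank. The summit also falls in the window of the neighbouring gene F54C9.14. At eef-1A.2 (WBGene00001169, chromosome X, 7823654 to 7825769, plus strand) the summit stood 317 bp upstream, at pooled rank 309 with a signal of 116, and at replicate ranks 266 and 450. A non-coding RNA gene on the opposite strand, R03G5.8, lies 48 bp from that summit. At eif-2Bgamma (WBGene00004090, chromosome II, 6965800 to 6967648, minus strand) the summit was 705 bp upstream, inside the gene C15F1.5, at pooled rank 489 with a signal of 102. That peak ranked 240 in replicate 1 and 1499 in replicate 2, a gap wider than at any of the other 4. Its summit lies 41 bp from sup-39, a gene that the annotation types as small nuclear RNA, and within 250 bp of mir-1831, of the piRNA gene 21ur-14704 and of the non-coding RNA gene C15F1.14. Which of these genes the signal belongs to was not tested.

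The DNA under these 3 summits is printed as an example of final-list peaks upstream of a translation factor gene. The upstream window of eif-3.C, described next, is not printed. Each reaches 50 bp to either side of the summit, less 2 bases for iff-2 that fall in a UTR, and is read 5′ to 3′ on the strand of the gene from the RefSeq copy of the assembly. Capitals mark matches to TTTTCAG, the consensus of the worm 3′ splice site, on either strand. The windows are ce11 chrII:8561368-8561466 on the minus strand, chrX:7823287-7823387 on the plus strand and chrII:6968303-6968403 on the minus strand.
iff-2: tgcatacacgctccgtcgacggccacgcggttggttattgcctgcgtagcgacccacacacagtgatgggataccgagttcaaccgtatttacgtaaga
eef-1A.2: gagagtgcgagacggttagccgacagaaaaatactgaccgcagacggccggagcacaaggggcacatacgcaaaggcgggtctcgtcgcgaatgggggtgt
eif-2Bgamma: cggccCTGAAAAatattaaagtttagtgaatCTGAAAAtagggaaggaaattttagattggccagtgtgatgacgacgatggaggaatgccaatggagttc
The first 2 held none of 5 motifs searched on both strands, which were the tRNA gene B box GTTCNANNC, the TATA box TATAAA, the GA repeat GAGAGA, the splice site motif and the T-block TTTTTTT. The third held TTTTCAG in 2 copies on the other strand. Guanine and cytosine made up 55.4%, 60.4% and 40.6% of the windows of iff-2, eef-1A.2 and eif-2Bgamma, against a median of 52.5% over all 881 final-list windows. The eif-3.C window likewise held none of the motifs, and guanine and cytosine made up 55.4% of it.

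Both other final-list peaks lay on chromosome I. At eif-3.C (WBGene00001226, 9976426 to 9979662, minus strand), a core scaffold subunit of eIF3, the summit was 236 bp upstream, at pooled rank 400 with a signal of 109, and at replicate ranks 734 and 507. The window of sys-1 also holds that summit, and the nearest gene body is not that of eif-3.C. At eef-2 (WBGene00001167, 9163531 to 9166952, plus strand) the final-list summit stood 388 bp past the 3′ end, at pooled rank 327 with a signal of 114.9, and at replicate ranks 304 and 427. It is the only final-list summit of the family on the downstream side of its gene, and no RNA gene lay within 250 bp. The weakest peak of the final list had a signal of 85.5. The 3 translation factor genes next below it were eef-1A.1 (83.0), eif-4A3 (75.6) and eef-1B.1 (74.7). The −log10 q was 2.31 for the eef-1A.2 peak, 2.34 for eef-2, 2.43 for eif-3.C and 2.51 for eif-2Bgamma. All 113 peaks of the family were 484 bp wide.

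**Figure D2:**
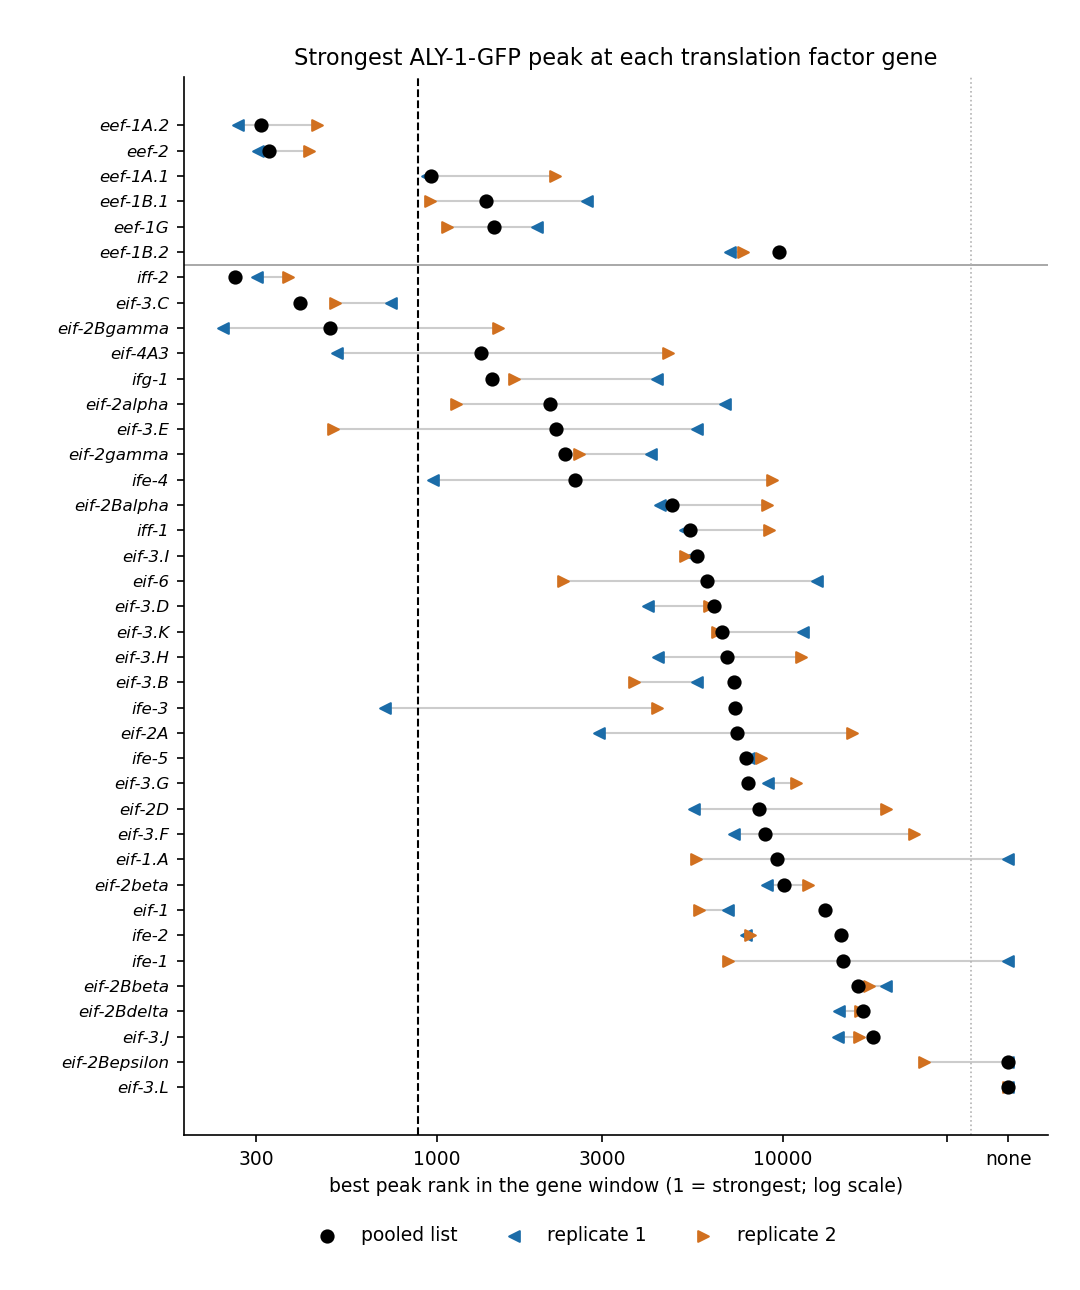
Best peak rank in the gene window (horizontal axis, log scale, strongest at the left) for each of the 39 genes, in the pooled list (black circles), replicate 1 (blue) and replicate 2 (orange); the 6 elongation factor genes stand above the line and the 33 others below it. The dashed line marks rank 881, and 5 black circles lie left of it, those of iff-2, eef-1A.2, eef-2, eif-3.C and eif-2Bgamma.

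The 6 elongation factor genes with an eef- symbol had a lower median best rank, that is stronger peaks, than the other genes of the family. The strongest single peak was at iff-2. The split was by symbol only, so both eIF5A genes were counted with the other genes. Of the 6 eef- genes, 2 had a final-list peak and 5 a peak among the 5000 strongest, with a median best rank of 1174.5. Of the 33 other genes, 3 had a final-list peak and 10 a peak among the 5000 strongest, with a median best rank of 6921. Over all protein-coding genes the shares were 4.03% and 18.4% and the median best rank was 9460. With 6 genes in the smaller set, this is a description and was not tested. The exception among the 6 was eef-1B.2, at rank 9760 (7057 and 7674 in replicates 1 and 2), while eef-1B.1, which like it encodes an exchange factor subunit of eEF1, stood at 1386 (2712 and 957). The replicate peaks under the eef-1B.2 summit ranked 7057 and 27909. The eef-1B.1 summit on chromosome III lay in a coding exon 473 bp into the gene, in windows shared with aco-2 and F54H12.5, and the replicate peaks under it ranked 8136 and 957. The second eEF1A gene, eef-1A.1 (chromosome III, 6970026 to 6971712, minus strand), was at rank 963 with replicate ranks of 937 and 2200. The gene eef-1G, which encodes the gamma subunit of eEF1, was at rank 1466, and the best replicate ranks in its window were 1947 and 1070. Its strongest summit stood 24 bp upstream of the annotated 5′ end, on chromosome V, in a window it shares with ctf-4. The replicate peaks under that summit ranked 2317 and 1070.

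Several elongation factor genes carried peaks at more than 1 place. At eef-1A.2 all 4 candidates were among the 5000 strongest: the upstream one, 1 each at 1165 and 1425 bp into the gene in coding exons (ranks 1214 and 3842), and 1 at 363 bp past the 3′ end (rank 2829). The coding pair overlaps a single peak in each replicate list, at ranks 3521 and 513, so it may not be 2 separate sites. The replicate peaks under the summit past the 3′ end ranked 11770 and 1144. A non-coding RNA gene, C54D2.14, lies 60 bp from that summit. At eef-2 a coding exon summit 1804 bp into the gene ranked 2264 and an upstream summit 73 bp from the 5′ end ranked 3953. The upstream summit had no counterpart in replicate 1 and ranked 2106 in replicate 2, and the coding summit ranked 645 in replicate 1 and 11945 in replicate 2. At eef-1A.1 the strongest summit lay 1215 bp into the gene in a coding exon, and an upstream one at 389 bp ranked 4688, 16 bp from the microRNA gene mir-5549 and in the window of rfc-4. The replicate peaks under that upstream summit ranked 3436 and 8089. At eef-1G a coding exon summit ranked 4417, 226 bp from the small nucleolar RNA gene F17C11.15. The replicate peaks under the eef-1G coding summit ranked 1947 and 18611. Over the whole family the median gene had 2 candidate summits and the mean was 2.90, against 1 and 1.56 for all protein-coding genes.

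**Figure D3:**
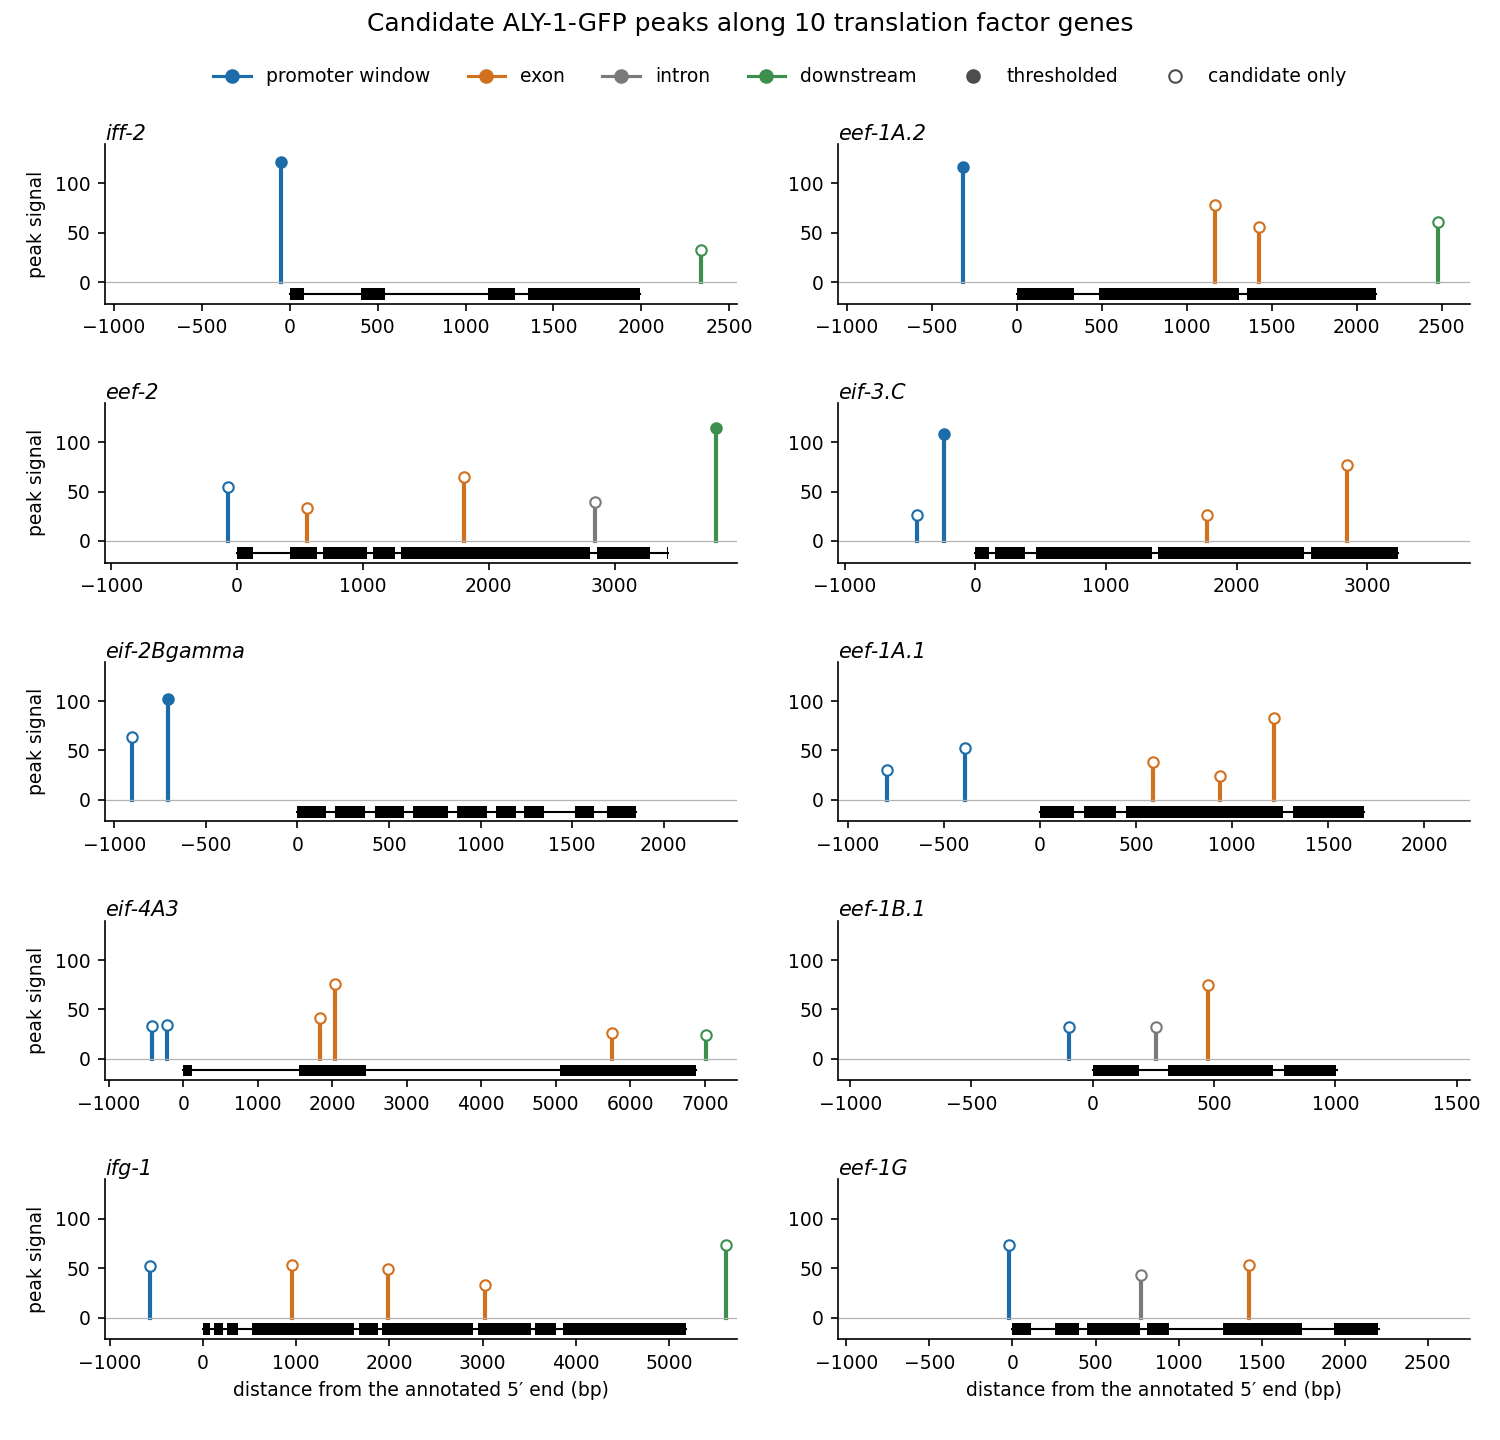
Candidate peaks along the 10 translation factor genes with the strongest peaks, with distance from the annotated 5′ end in bp on the horizontal axis, pooled peak signal on the vertical axis, and exons as black boxes. Filled circles are final-list peaks; at iff-2, eef-1A.2, eif-3.C and eif-2Bgamma they stand left of the gene, and at eef-2 to the right of it.

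The 2 eEF1A genes lie on different chromosomes and encode near-identical coding sequences of 1389 bp each, which matched at 1305 bases. The strongest coding summit stood at coding base 1083 (codon 361) in eef-1A.1 and at coding base 993 (codon 331) in eef-1A.2, 90 coding bases apart. Printed below is the aligned stretch that holds both summits, coding bases 988 to 1088, at ce11 chrIII:6970492-6970592 on the minus strand and chrX:7824814-7824914 on the plus strand. Capitals mark the 8 positions at which the genes differ.
eef-1A.1: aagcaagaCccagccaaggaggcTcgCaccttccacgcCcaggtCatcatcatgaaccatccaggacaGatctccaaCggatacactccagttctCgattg
eef-1A.2: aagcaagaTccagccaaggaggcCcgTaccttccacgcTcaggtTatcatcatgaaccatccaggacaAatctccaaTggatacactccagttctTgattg
Of the stretches of 36 bases under these peaks, 6.90% at eef-1A.1 and 7.13% at the stronger coding peak of eef-1A.2 occur at another place in the genome. The length of 36 bases is arbitrary, since the read length is not given in the sources used here, and how reads shared by both genes were placed is not given either. The coding peaks of the pair are therefore uncertain as separate signals. The upstream final-list peak of eef-1A.2 held no such repeated stretch. The share was 20.7% at both peaks of eif-2Bgamma and 9.35% at the weaker coding peak of eef-1A.2, and 0 at the other peaks of translation factor genes among the 5000 strongest.

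The subunits of the ternary complex and its exchange factor covered the whole range of ranks. For eIF2, which carries the initiator tRNA, eif-2alpha ranked 2117 (6820 and 1132 in replicates 1 and 2), eif-2gamma 2353 (4151 and 2571) and eif-2beta 10098 (9035 and 11809). The strongest eif-2alpha summit was 83 bp past the 3′ end, and that of eif-2gamma was 600 bp upstream, inside tbca-1. The replicate peaks under that eif-2alpha summit ranked 9377 and 1132, and those under the strongest eif-2beta summit 25718 and 11809. For eIF2B, which recharges eIF2 with GTP and is the target of stress signalling through phosphorylated eIF2, eif-2Bgamma was followed by eif-2Balpha at 4774 (4426 and 8986, in a coding exon 342 bp into the gene on chromosome III), eif-2Bbeta at 16546 and eif-2Bdelta at 17039. The fifth eIF2B gene, eif-2Bepsilon, had no pooled candidate and none in replicate 1, and a peak at rank 25670 in replicate 2. Subunits of the same complex thus ranged from the final list to no candidate. The final-list end is the eif-2Bgamma peak alone, which lies inside C15F1.5. With each summit counted only for the nearest gene body, eif-2Bgamma dropped out.

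The 11 eIF3 genes likewise spread widely, with 1 final-list gene, 2 among the 5000 strongest, 10 with a candidate and a median best rank of 6792.5. At eif-3.C a second candidate lay in a coding exon 2842 bp into the gene, at rank 1276 with replicate ranks of 4146 and 1155. After eif-3.C came eif-3.E at rank 2204, 416 bp upstream of its 5′ end. That peak ranked 501 in replicate 2 and 16319 in replicate 1, the widest disagreement between replicates in the family. Then followed eif-3.I (5669), eif-3.D (6327), eif-3.K (6664), eif-3.H (6921), eif-3.B (7233), eif-3.G (7964), eif-3.F (8896) and eif-3.J (18307). The eif-3.I peak overlapped no replicate 1 peak and ranked 5232 in replicate 2, and the best replicate 1 rank in its window was 5455. The eif-3.J peak was the weakest of the 37 genes, with a signal of 30.3. It ranked 14446 in replicate 1 and overlapped no replicate 2 peak, and the best replicate 2 rank in its window was 16622. The gene eif-3.L had no candidate in the pooled list or in either replicate.

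Among the factors that bind the cap and load the mRNA, ifg-1, the worm eIF4G scaffold, ranked 1440 (4335 and 1666 in replicates 1 and 2). That summit lies 436 bp past its 3′ end and inside dab-1. Weaker candidates of ifg-1 stood in coding exons (ranks 4419, 5494 and 15305) and 571 bp upstream (4681). Placed here by its symbol only, eif-4A3 is named for the DEAD-box helicase of the exon junction complex, not for a factor that loads the mRNA. The gene ranked 1338 with a summit in a coding exon 2033 bp into it on chromosome I. The replicate peaks under that summit ranked 514 in replicate 1 and 5973 in replicate 2. The best replicate 2 peak in the window, at rank 4647, overlapped another pooled peak, in the 3′ UTR, at pooled rank 24259. Of the 5 genes for the cap-binding protein eIF4E, ife-4 ranked 2513 (975 and 9347, 345 bp upstream on chromosome X), ife-3 7277 (708 and 4335), ife-5 7848 (8003 and 8650), ife-2 14771 (7857 and 8052) and ife-1 14961 (none and 6938). The replicate peaks under the strongest ife-3 summit ranked 24049 and 4335. The strongest ife-2 peak overlapped a peak in replicate 2 only, at rank 8052. None of the 5 was in the final list.

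The eIF5A, eIF6, eIF1 and eIF2-independent factors complete the family. The second eIF5A gene, iff-1, ranked 5386 (5232 and 9149 in replicates 1 and 2), 181 bp upstream in the shared window of cdk-1, against 260 for iff-2. The gene eif-6, whose product keeps the large ribosomal subunit from joining early, ranked 6029 with a summit inside pbs-2. The genes eif-2A and eif-2D, whose mammalian products can bring initiator tRNA to ribosomes without eIF2, ranked 7389 and 8530. The start codon selection factors eif-1.A and eif-1 ranked 9658 and 13280, and replicate 1 had no candidate at eif-1.A.

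By share, candidate summits of translation factor genes lay more often upstream and in exons, and less often in introns, than those of all genes. The windows of these genes also hold more promoter and exon sequence and less intron sequence. Each summit was placed in a promoter window (1000 bp upstream to 200 bp past the 5′ end), an exon, an intron or the 500 bp downstream, in that order of precedence. Promoter windows held 46 of the 113 summits (40.7%, against 28.7% over all protein-coding genes), exons 42 (37.2%, against 31.8%), introns 11 (9.73%, against 29.0%) and downstream flanks 14 (12.4%, against 10.4%). Introns make up less of the windows of these genes, 20.1% of the bases against 35.7%. Exons make up more, 36.5% against 28.4%, as do promoter windows, 30.7% against 25.4%. The exon share of summits, 37.2%, was thus close to the exon share of bases. Per 100 kb of each kind of sequence, translation factor genes held 98.2 summits in promoter windows (37.2 for all genes), 75.4 in exons (37.0), 35.9 in introns (26.8) and 71.8 downstream (32.4). Density was thus above that of all genes in each of the 4 kinds, and nearest to it in introns. Among the 27 summits in the 5000 strongest, 13 were in promoter windows (48.1%, against 35.6% of the gene and summit pairs of all genes at that strength), 10 in exons (37.0%, against 28.0%), 4 downstream (14.8%, against 10.9%) and 0 in introns (against 25.5%). Within gene bodies the 57 summits had a median position 50.1% of the way along the gene, against 50.01% for all genes. Upstream distances are from the annotated 5′ end, which for the many trans-spliced mRNAs of the worm can lie downstream of where transcription begins.

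**Figure D4:**
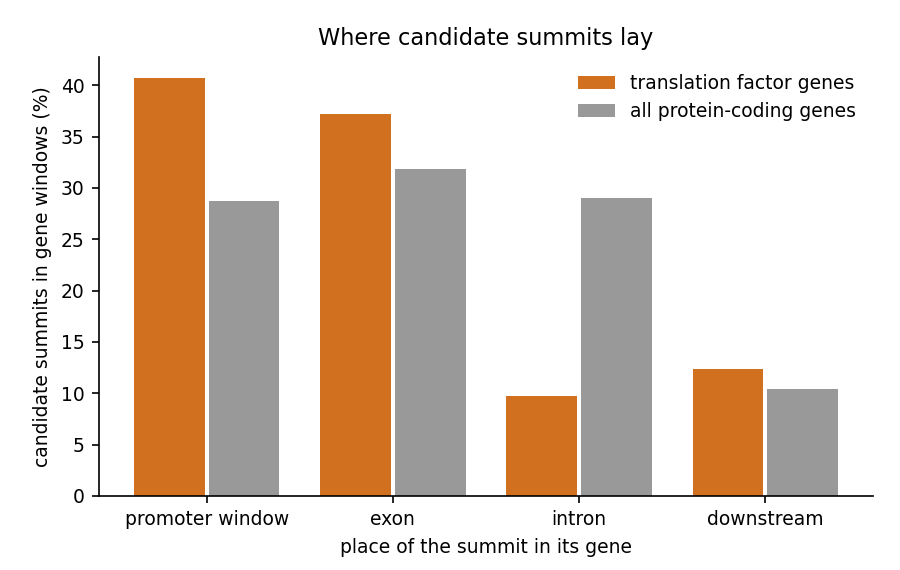
Share of candidate summits (vertical axis, percent) in each part of the gene window, for 113 summits of translation factor genes (orange) and 31089 gene and summit pairs of all protein-coding genes (grey). Introns held 9.73% and 29.0%, and promoter windows 40.7% and 28.7%.

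Many of these summits also fell near other genes. Of the 113 summits, 66 (58.4%) lay in the window of another protein-coding gene, against 37.8% over all genes, and 24 (21.2%) lay inside the body of another gene, against 16.1%. The part of such neighbours in the counts was not tested beyond the nearest-gene count given above. The strongest summit lay within 250 bp of an RNA gene at 3 of the 37 genes (eef-1A.2, eif-2Bgamma and eif-2beta), against 10.9% of all protein-coding genes with a candidate. When summits near tRNA, small nuclear, small nucleolar and other structural RNA genes were left out, 4 of the 5 final-list genes remained, all but eif-2Bgamma, while the share of all protein-coding genes fell to 2.92%, against 4.03% with those summits kept.

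Most peaks of the family were found in both replicates, at ranks that often differed. Of the 113 pooled peaks, 84 (74.3%) overlapped a peak in both replicates, against 60.8% of all 30000 pooled peaks, 22 only in replicate 2 and 7 only in replicate 1. Among the 27 in the 5000 strongest, 26 (96.3%) were found in both, against 4900 of all 5000. Over all 84 peaks found in both, the median ratio between the weaker and the stronger replicate rank was 2.35, against 1.96 over all pooled peaks found in both. The median ratio was 6.25 for the 26 among the 5000 strongest (quartiles 2.06 and 9.58), against 2.47 (1.51 and 4.73) for all of the 5000 strongest found in both. Neither replicate was the better one throughout, since 12 ranked higher in replicate 1 and 14 in replicate 2. The widest ratio was 32.6, at eif-3.E. For the 5 final-list peaks the median ratio was 1.45, against 1.94 over all 881. Some neighbouring pooled peaks share the same replicate peaks, as at eif-2Bgamma, eif-3.E and the coding pair of eef-1A.2, so the 26 ratios are not all separate. Both eif-2Bgamma peaks enter at 6.25, which is the median itself. That median therefore depends on counting shared replicate peaks more than once.

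**Figure D5:**
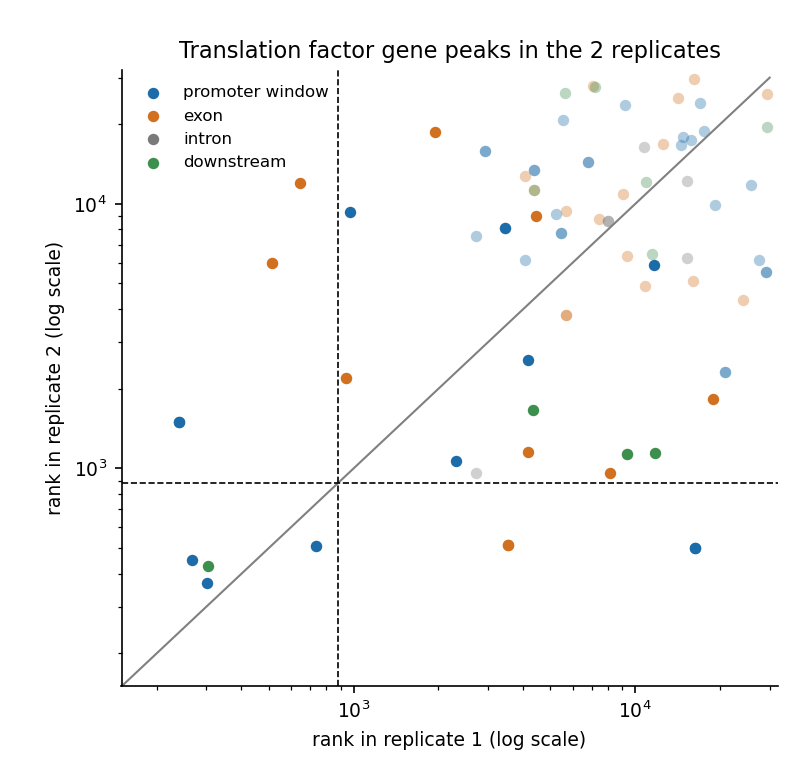
Rank of each pooled peak of a translation factor gene in replicate 1 (horizontal axis) and replicate 2 (vertical axis), both on log scales, for the 84 peaks found in both; full colour marks the 5000 strongest pooled peaks, pale colour the rest, and dashed lines mark rank 881. Of the 5 final-list peaks, 4 lie in the lower left corner below both lines and 1, that of eif-2Bgamma at ranks 240 and 1499, lies above the line of replicate 2.

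The same 5 motifs were counted at every translation factor gene. In the windows of 50 bp to either side of the strongest summit of each of the 37 genes, the B box GTTCNANNC was in 3 (8.11%, against 13.4% of final-list and 4.06% of all pooled windows), TATAAA in 4 (10.8%, against 2.61% and 6.89%), GAGAGA in 4 (10.8%, against 21.3% and 10.1%), TTTTCAG in 6 (16.2%, against 2.27% and 7.66%) and TTTTTTT in 3 (8.11%, against 5.45% and 13.2%). The last of these can overlap TTTTCAG by its T run. Examples with a match are eef-1G (ce11 chrV:10965645-10965718, plus strand), where capitals mark the B box match on the other strand, and ife-4 (chrX:1103817-1103917, plus strand), where capitals mark overlapping copies of GAGAGA on the other strand. For eef-1G the 27 bases of the window that fall in a UTR are left out, and a TTTTCAG match lies there.
eef-1G: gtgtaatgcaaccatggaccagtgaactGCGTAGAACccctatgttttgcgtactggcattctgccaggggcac
ife-4: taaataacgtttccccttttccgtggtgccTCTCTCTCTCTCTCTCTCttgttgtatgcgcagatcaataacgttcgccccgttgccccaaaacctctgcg
A match is a description of the letters, not a binding site. Median guanine and cytosine content was 44.6% around the strongest summits of the 37 genes, against 43.6% over all pooled windows. It was 49.5% around the 27 summits in the 5000 strongest, the same as over all 5000.

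The family is spread over all 6 chromosomes. Of the 39 genes, 12 lie on chromosome I, 12 on II, 6 on III, 2 on IV, 4 on V and 3 on X. Final-list peaks were at 2 genes on I, where 4.45% of all protein-coding genes had one, 2 on II (3.798%) and 1 on X (6.37%), and at none on the others.

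Other genes of the translation machinery were listed by name for comparison. Over all protein-coding genes, 4.03% had a final-list peak and 18.4% one among the 5000 strongest, with a median best rank of 9460. Medians cover only genes with a candidate. Of 10 matched genes of cap-binding, poly(A) and eIF4 partners, 5 (50%) had a final-list peak and 6 (60%) one among the 5000 strongest. The median best rank of the 9 with a candidate was 816. The 5 were ifet-1 at rank 27 (24 and 28 in replicates 1 and 2), the homologue of the eIF4E transporter and a translational repressor, pab-2 at 237 (441 and 251), a poly(A)-binding protein, larp-1 at 306 (175 and 595), a La-related protein, iffb-1 at 669 (801 and 853), the worm eIF5B, and drr-2 at 816, named after its value was seen because the count is small. A tRNA gene lies within 250 bp of the ifet-1 summit. The rest of the list ranked 960, 10205, 13087 and 15731, and the last gene had no pooled candidate. Of 32 aminoacyl-tRNA synthetase genes, 2 (6.25%, near the 4.03% of all genes) had a final-list peak and 10 (31.3%) one among the 5000 strongest, with a median best rank of 8829.5. These 2 were fars-1 at rank 64 (62 and 63), in an intron near the small nucleolar RNA gene T08B2.13, and ears-2 at rank 98 (105 and 99), 31 bp upstream. Of 6 termination and recycling genes 1 (16.7%) was in the final list, the release factor gene erfa-3 at rank 200 (901 and 151). Of 7 genes for kinases and regulators of the factors none was, although 4 (57.1%, against 18.4% of all genes) were among the 5000 strongest, with a median gene length of 7338 bp. None of 4 mitochondrial factor genes had a peak among the 5000 strongest, and their median best rank was 15291. Among 78 cytosolic ribosomal protein genes, 3 (3.85%) had a final-list peak, close to the 4.03% of all genes, and 46 (59.0%) one among the 5000 strongest, against 18.4% of all genes, at a median gene length of 753.5 bp. The symbols spn-2, etf-1 and gfm-2 matched no annotated gene name.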

How the data were processed

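ALY-1-GFP ChIP-seq of early embryos was available as peak lists of 2 replicates of 1 group, per the labels, which do not say whether the replicates came from separate cultures or days. Per the file listings deposited with the samples, each replicate has a ce11 list of peaks and background made for the irreproducible discovery rate procedure, a further list pools the replicates, and the final list is the set that passed it as optimal. The signal of each peak is the value the authors deposited, relative to the control in a way not stated, and served for ranking inside each list. The deposited −log10 q column was printed and not used for selection. Names and versions of aligner and caller, and the threshold applied, were not given in the sources used here. Lists on ce10 were not used.

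Genes came from Ensembl release 115 on WBcel235, sequences and RNA gene names from RefSeq of the same assembly. Summits were counted in gene windows, and a replicate rank is that of the best-ranked replicate peak overlapping by at least 1 bp or, for a gene, of the best peak in its window. Repeated sequence was counted as stretches of 36 bases present elsewhere. No test was run. Genes named in full are those with a final-list summit, the 12 next by best rank (the first 3 of these just outside the list), the weakest and those with no candidate; others are named by family with their rank, and up to 4 genes of each comparison list, with drr-2 added after its value was seen. The genes, lists and this rule were chosen with earlier results of these data known. Alternatives changed the replicate, window, gene assignment, number of peaks, feature order and rank match. Scripts were tested on simulated data and used Biopython 1.88, matplotlib 3.10.9, pandas 2.3.3, numpy 2.4.6, scipy 1.17.1 and Python 3.11.15.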

Additional observations from a re-analysis of the deposited data

How the results depend on the processing

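The count of 5 translation factor genes with a final-list peak fell to 3 with the nearest gene only (3.24% of all genes) and to 0 inside gene bodies (1.77%), and was 10 with 1762 peaks (7.51%). By single replicates it was 5 to 7. The 15 genes among the 5000 strongest became 9 inside gene bodies (10.7% of all genes) and 30 with the 10000 strongest (31.3%). The median best rank of 6327 became 8293 in promoter windows, 7848 in gene bodies, 5080 with wider flanks and 7389 with the nearest gene, against 11743, 11626, 8546.5 and 10316 over all genes, and 5232 to 5927.5 by single replicates (9656 and 9736). The cause of these shifts was not tested. Shares by feature, RNA gene counts, the count with any candidate and the median replicate rank ratio of 2.35 moved less than 1.5-fold under the alternatives run, although with replicate summits within 100 bp the ratio was 1.91, against 1.94 over all pooled peaks. No paired analysis was possible because there is only 1 group.
Limits: depth is unknown, 2 replicates of 1 strain were compared without a precipitation from untagged embryos, and replicate ranks differed by a median ratio of 2.35 over the 84 peaks of the family found in both replicates (1.96 over all pooled peaks) and of 6.25 over the 26 stronger ones (2.47). The value of 6.25 depends on counting some shared replicate peaks more than once.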
